A study of Mus musculus with 14 samples.

Results

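The miR-30 family was examined in exosomes released by adipose tissue macrophages (ATMs) of obese and lean mice. Its 6 hairpins, mmu-mir-30a, mmu-mir-30b, mmu-mir-30c-1, mmu-mir-30c-2, mmu-mir-30d and mmu-mir-30e, were taken by name and are all among the 539 hairpins of the authors' deposited table. They were read as 3 genomic clusters, 30a/30c-2, 30b/30d and 30c-1/30e. ATMs are the macrophages of fat tissue, here CD11b+F4/80+ cells, and exosomes are small vesicles that pass microRNAs between cells. The obese group holds 7 libraries and the lean group 7, all from C57BL/6 mice and all from ATMs whose medium held 10% exosome-depleted serum over a culture of 72 h. The sources used here do not say how the mice became obese, whether animals were pooled or whether each library came from its own animal, so p-values measure the spread between these libraries, which may be technical. The age labels share a lower bound of 24 weeks. Their upper bounds step by 1 week from library to library, 26 to 32 weeks in the obese group and 33 to 39 weeks in the lean group. If these labels hold, age and obesity cannot be told apart.

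A hairpin is the folded precursor from which Dicer cuts a 5p and a 3p arm, and bases 2 to 8 of the loaded arm, the seed, choose its targets. Members of the miR-30 family share the seed of the 5p arm and so share most predicted targets. In fat, miR-30a and miR-30d favour human adipocyte differentiation through RUNX2, miR-30b and miR-30c support thermogenesis in mouse brown and beige adipocytes through the corepressor RIP140, and in mouse ATMs miR-30 acts on the Notch ligand Dll4. This is background from other work and not a result of these data.

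The mature sequences below are shown because they decide which hairpins a sequencing read can tell apart. RefSeq (GRCm38.p6) gave mature sequences for 4 of the 6 members, matched by symbol. They run 5′ to 3′, with the seed in capitals. The 5p arms are those of mir-30a, of both mir-30c copies and of mir-30e.
miR-30a-5p: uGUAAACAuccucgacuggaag
miR-30e-5p: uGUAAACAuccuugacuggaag
miR-30c-5p: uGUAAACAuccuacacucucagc

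All 3 carry the seed GUAAACA. Counted from 1 at the 5′ end of miR-30a-5p, the difference to miR-30e-5p is the single substitution C13U, while miR-30c-5p differs from miR-30a-5p at 5 of the first 22 bases. The 3p arms of mir-30a, mir-30e and both mir-30c copies fall into 2 seed groups. The arms of mir-30b and mir-30d were not available here.
miR-30a-3p: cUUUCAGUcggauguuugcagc
miR-30e-3p: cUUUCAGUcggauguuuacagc
miR-30c-1-3p: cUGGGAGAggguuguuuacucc
miR-30c-2-3p: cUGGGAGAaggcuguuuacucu

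The arms miR-30a-3p and miR-30e-3p share the seed UUUCAGU and differ by the substitution G18A, counted from the 5′ end of miR-30a-3p. The 3p arms of the miR-30c copies share the seed UGGGAGA and differ at 3 of 22 bases. Among the mature sequences of the RefSeq table, the seed GUAAACA was also that of miR-384-5p, whose hairpin was not analysed here, and the seed UGGGAGA that of miR-6958-5p. The hairpin mir-6958 was number 445 of 539 in level in the authors' deposited table (mean log2 expression −0.02), with a log2 fold change of −1.15 and a limma adjusted p of 0.592.

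The 2 hairpins that make miR-30c are printed with the shared 5p arm in capitals, because a read of that arm fits either locus.
mir-30c-1: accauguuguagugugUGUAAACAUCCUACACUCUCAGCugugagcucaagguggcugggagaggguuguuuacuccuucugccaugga
mir-30c-2: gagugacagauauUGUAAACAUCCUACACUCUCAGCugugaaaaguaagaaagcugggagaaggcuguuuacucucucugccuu

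On GRCm38, GENCODE M21 places mir-30a (ENSMUSG00000065405.3) on the plus strand of chromosome 1, bases 23272269 to 23272339, outside any annotated host, and mir-30c-2 (ENSMUSG00000065567.1) at bases 23291701 to 23291784, in an exon of the noncoding RNA Gm27028. They lie 19.4 kb apart. The hairpins mir-30b (ENSMUSG00000065476.2, bases 68337415 to 68337510) and mir-30d (ENSMUSG00000065437.1, bases 68341208 to 68341289) lie 3.70 kb apart on the minus strand of chromosome 15. Part of mir-30b overlaps an exon of Gm26621, and mir-30d lies in an exon of the noncoding RNA Gm20732. The hairpins mir-30c-1 (ENSMUSG00000065490.1, bases 120769534 to 120769622) and mir-30e (ENSMUSG00000065409.1, bases 120772606 to 120772697) lie 2.98 kb apart on the minus strand of chromosome 4, in introns of Nfyc, which encodes a subunit of the transcription factor NF-Y.

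The values are those of the authors' deposited table, the result of a limma comparison of the obese and lean groups. It gives a mean log2 expression over both groups (here called the level), a log2 fold change, a moderated t and p-values for each hairpin. It holds no value for a single library or a single group, so the spread of a level, the group means, the depth of each library and the overlap of the groups were not analysed here. Levels are per hairpin. Whether they were adjusted for length is not said in the sources used here. The mature arms shown above are 22 or 23 bases long. The 2 arms of a hairpin share 1 row. The table does not name the numerator of its fold changes. A published account of this material gives miR-155, a miRNA that inflammatory stimuli induce in macrophages, as raised in obese ATM exosomes. The authors' deposited table lists mir-155 at a log2 fold change of 4.41 (limma adjusted p = 0.00205). Read that way, a positive value means a higher level in the obese group than in the lean group. The sign of mir-155 itself is then no evidence, and every direction below holds only relative to it.

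The members differed widely in abundance. In the authors' deposited table mir-30d had a level of 13.43 and was number 14 of 539 hairpins in abundance, and mir-30a, with 12.39, was number 22. Lower levels were listed in the authors' deposited table for mir-30e (9.82), mir-30c-2 (9.27) and mir-30c-1 (9.12), and mir-30b was the lowest of the family at 7.88 (number 120). All 6 were among the 180 most abundant hairpins. After back-transforming each level from the log2 scale, mir-30d made up 59.0% of the sum over the 6 hairpins, mir-30a 28.6%, and mir-30b 1.26%, with reads shared between copies counted as the authors left them. Without a spread for the levels, it was not tested which neighbours in this order differ.

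Cluster mates stood at unequal levels. On chromosome 15, mir-30d was 5.55 log2 units (46.7-fold) above mir-30b. On chromosome 1, mir-30a was 3.11 units (8.66-fold) above mir-30c-2, and on chromosome 4 the gap was smallest, with mir-30e 0.70 units (1.63-fold) above mir-30c-1. For comparison, 20 other neighbouring pairs of the table were taken, those on the same strand within 20 kb with both hairpins at least as abundant as mir-30b. Their level gaps ranged from 0.15 to 6.25 with a median of 2.19 log2 units. The gap of mir-30d and mir-30b was exceeded in 2 of the 20 pairs, and that of mir-30e and mir-30c-1 in 16.

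**Figure D1:**
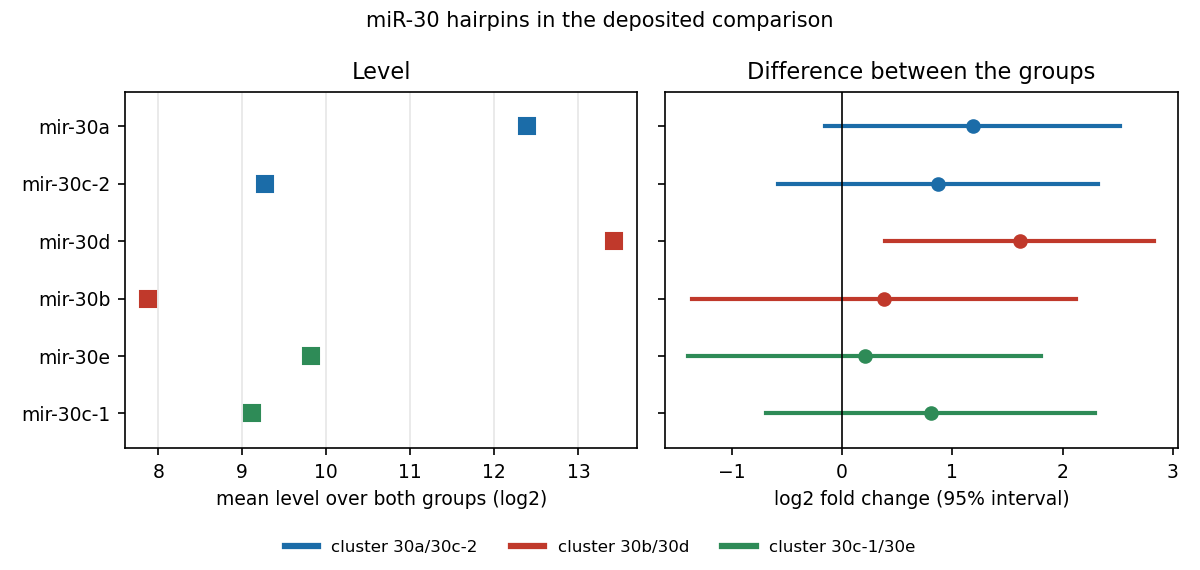
Left, the mean log2 level of each miR-30 hairpin over both groups; right, its log2 fold change with a 95% interval, positive meaning higher in the obese than in the lean group under the direction taken from mir-155. Colours mark the 3 clusters; the interval of mir-30d, from 0.39 to 2.83, lies above 0, and those of the other 5 hairpins hold 0.

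None of the 6 hairpins was called, that is, had an adjusted p under 0.05, while 30 of 539 (5.57%) were called over the whole table by the limma test with Benjamini-Hochberg adjustment. At an unadjusted p under 0.05 the limma test passed 1 of 6, mir-30d, on the positive side, against 46 positive hairpins of 539 (8.53%). At 6 hairpins these shares are too coarse to set apart. All 6 fold changes were positive, with a median of 0.84 on the log2 scale, against 284 of 539 (52.7%) and a median of 0.09 over all hairpins in the authors' deposited table. Among the 107 hairpins between mir-30b and mir-30d in level, both included, 79 (73.8%) were positive with a median of 0.42. Most hairpins as abundant as the miR-30 members thus lay on the same side. Recentring all fold changes by 0.34, the median over those 180 most abundant rows, left 5 of 6 positive, with mir-30e at −0.14, so the sign of mir-30e depends on the scaling.

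The hairpin mir-30d, the most abundant member, had the largest fold change of the 6. Its log2 fold change in the authors' deposited table was 1.61 (3.05-fold), with a standard error of 0.58 obtained as the fold change divided by t and a 95% interval from 0.39 to 2.83. The limma p was 0.0127 and the adjusted p 0.123, rank 53 by p. At this error the smallest absolute t called, 3.53, corresponds to a log2 fold change of 2.05 (4.15-fold), which its value did not reach. With 231 hairpins above a mean log2 expression of 3.32 in the adjustment its adjusted p was 0.0780, and after recentring by 0.34 it was 0.253. Its cluster mate mir-30b, the least abundant member, was at 0.38 with an interval from −1.36 to 2.12 (limma adjusted p = 0.896), as the authors' deposited table gives it. The error of mir-30b was the largest of the 6, at 0.83, and an absolute t of 3.53 corresponds there to a 7.60-fold difference.

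On chromosome 1, mir-30a stood at 1.18 on the log2 scale (2.27-fold) in the authors' deposited table, with a standard error of 0.64 and an interval from −0.15 to 2.52. Its limma p was 0.0793 and its adjusted p 0.350. Its cluster mate mir-30c-2 was at 0.87 (1.83-fold), with a standard error of 0.69, an interval from −0.58 to 2.32 and, by the authors' deposited table, a limma adjusted p of 0.547. The 2 hairpins of this cluster thus lay within 0.32 of each other, less than either error.

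On chromosome 4, the authors' deposited table put mir-30c-1 at 0.80 (1.74-fold), with a standard error of 0.71, an interval from −0.69 to 2.29 and a limma adjusted p of 0.592. It put mir-30e at 0.20 (1.15-fold), the smallest of the 6 values in the authors' deposited table, with a standard error of 0.76, an interval from −1.39 to 1.80 and a limma adjusted p of 0.936. Its interval spans differences from 0.38-fold to 3.49-fold. At this error the smallest absolute t called, 3.53, corresponds to a 6.43-fold difference, beyond both ends of that interval.

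**Figure D2:**
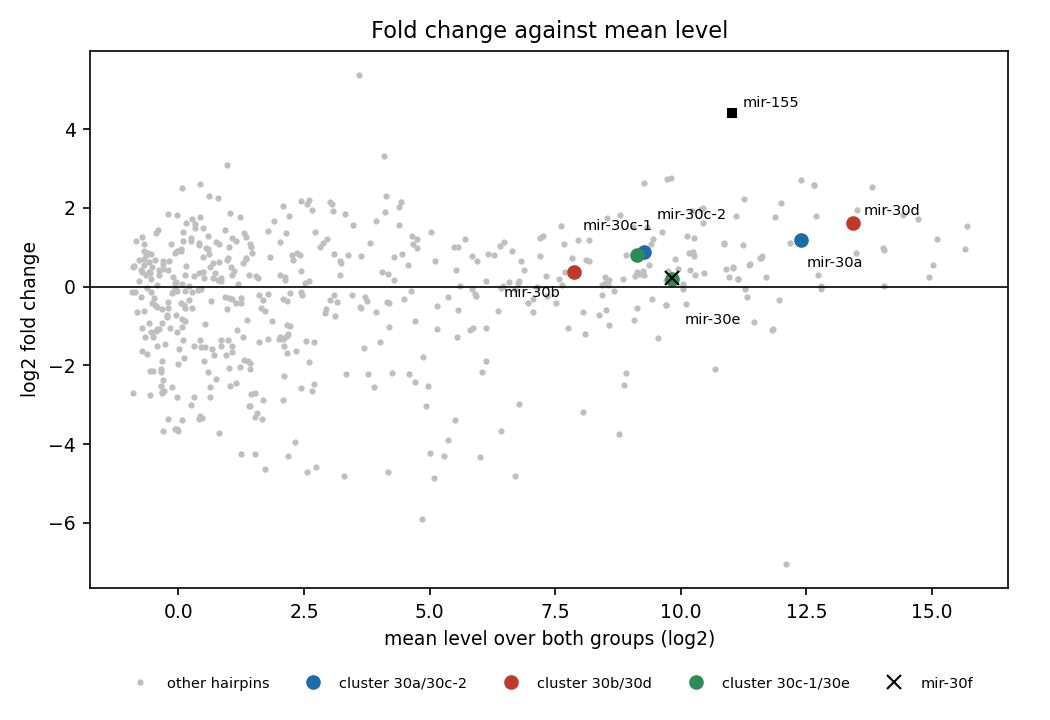
Log2 fold change against mean log2 level for all 539 hairpins of the authors' deposited table; coloured points are the miR-30 members by cluster, the cross is mir-30f and the square mir-155. The 6 members lie between levels of 7.88 and 13.43, all above 0, among other abundant hairpins, and far below mir-155 at 4.41.

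Set side by side, the mean log2 fold change was 1.03 for 30a/30c-2, 1.0 for 30b/30d and 0.50 for 30c-1/30e, computed from the authors' deposited table. The difference of 30a/30c-2 minus 30c-1/30e was 0.52, with a 95% interval from −0.95 to 2.0. That of 30b/30d minus 30c-1/30e was 0.49 (−1.03 to 2.02), and that of 30a/30c-2 minus 30b/30d was 0.03 (−1.42 to 1.48). These intervals take the errors of hairpins as uncorrelated, since the table gives no covariance, and no p was computed. Errors positively correlated between members would narrow the interval of a member pair, and could narrow or widen that of a cluster difference. With errors taken as uncorrelated, all 15 pairwise differences between members had intervals that hold 0, the widest gap being 1.41 for mir-30d minus mir-30e (−0.61 to 3.42). Under this assumption, which could not be checked, the data neither separate the clusters nor show them to be alike. The assumption is doubtful for mir-30c-1 and mir-30c-2, which lie in different clusters but share a 5p arm. Their log2 fold changes differed by 0.07, at standard errors of 0.71 and 0.69.

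Within the clusters, absolute differences in log2 fold change between the 2 mates were 0.32, 1.23 and 0.60 for 30a/30c-2, 30b/30d and 30c-1/30e. In 30b/30d the more abundant mir-30d exceeded mir-30b by 1.23 in log2 fold change (interval −0.90 to 3.35), which was more than in 16 of the 20 other neighbouring pairs. In 30c-1/30e the more abundant mir-30e was below mir-30c-1 by a difference of −0.60 (−2.78 to 1.59), and 11 of the 20 pairs differed by more. The median absolute difference of the 20 pairs was 0.69 and their largest 2.48.

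The mir-30c copies, on different chromosomes, were closer to each other than to their own cluster mates. Their log2 fold changes of 0.80 and 0.87 differ by 0.07 and their levels of 9.12 and 9.27 by 0.15 in the authors' deposited table. Among 13 other pairs of copies at least as abundant as mir-30b, the median difference in log2 fold change was 0.03, and 11 pairs were closer than the mir-30c copies. Among the 32 other pairs of copies at any level the median was 0.24, and again 11 were as close or closer. As the printed hairpins show, both contain the same 23 bases of miR-30c-5p, and the sources used here do not say how the authors assigned reads that fit both. The values of the copies are therefore uncertain, and each cluster mean that holds a copy shares this measurement. Without the copies, mir-30a, mir-30d with mir-30b, and mir-30e gave 1.18, 1.0 and 0.20.

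A further row of the table, mir-30f, bears on mir-30e. GENCODE M21 annotates mir-30f (ENSMUSG00000105585.1) at the same bases of chromosome 4 as mir-30e, 120772606 to 120772697, but on the plus strand. RefSeq gives its mature sequence, shown with bases 2 to 8 in capitals for comparison with the arms above.
miR-30f: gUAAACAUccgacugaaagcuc

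Of its 22 bases, 19 are the reverse complement of miR-30e-3p, from base 120772621 to base 120772639 of chromosome 4, and its seed UAAACAU is the miR-30 5p seed moved by 1 base. In the authors' deposited table mir-30f had a level of 9.83 and a log2 fold change of 0.23 (limma adjusted p = 0.929), against 9.82 and 0.20 for mir-30e. The levels differ by 0.01 and the fold changes by 0.02. In 4 other pairs on opposite strands of 1 locus and as abundant, the fold changes differed by 0.005 to 0.10 and the levels by 0.007 to 0.06. Among all 11 other such pairs at any level, the medians were 0.10 and 0.08, and the largest differences, 1.55 in fold change and 3.89 in level, were those of mir-219a-1 and mir-219c. The sources used here do not say whether the authors counted by strand, and without strand the reads of mir-30e and mir-30f cannot be told apart. The values of mir-30e are uncertain for that reason.

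**Figure D3:**
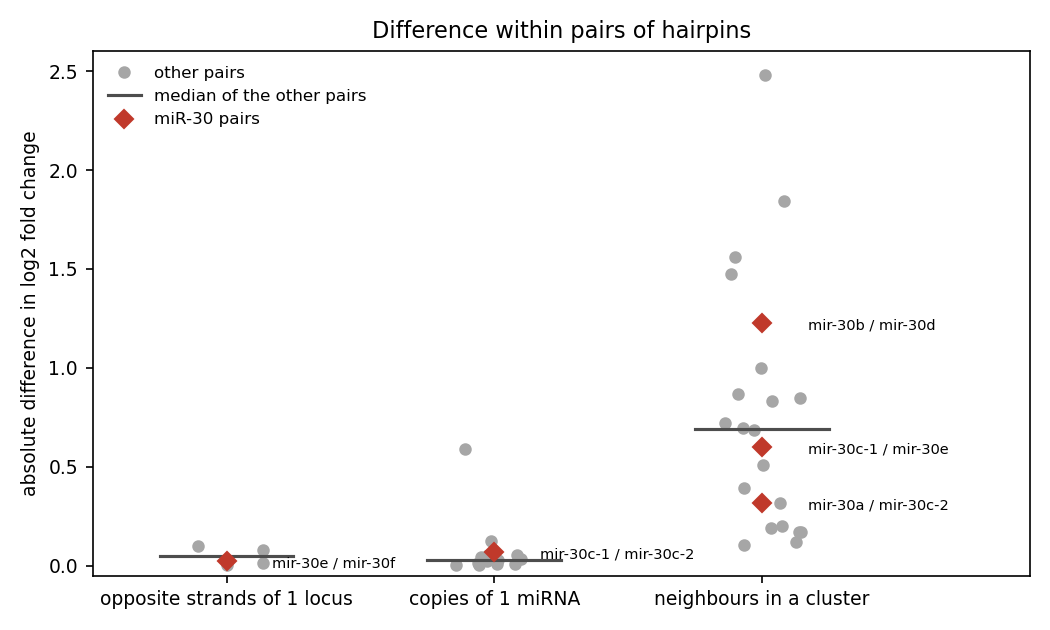
Absolute difference in log2 fold change within pairs of hairpins that lie on opposite strands of 1 locus, are copies of 1 miRNA, or are neighbours within 20 kb, all at least as abundant as mir-30b. Diamonds are miR-30 pairs, grey points other pairs, and lines their medians of 0.05, 0.03 and 0.69; the neighbours mir-30b and mir-30d differ most among the miR-30 pairs, by 1.23.

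The 5 other hairpins nearest to the family medians in level and fold change, with each axis divided by its SD over all hairpins, were mir-674, mir-26b, mir-1198, let-7e and mir-107. Likeness here is over a single comparison of 2 groups and not over libraries. The authors' deposited table gives them log2 fold changes between 0.70 for mir-26b (limma adjusted p = 0.760) and 1.07 for let-7e (limma adjusted p = 0.202), at levels from 8.91 to 10.16. None of these 5 was called, against 30 of 539 (5.57%) over all hairpins. They were picked for fold changes near the family median, so this is no separate result.

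Other miRNAs tied to adipocyte differentiation were set beside the family, as 2 lists from general knowledge. Of 19 hairpins reported to favour it, 15 were positive with a median log2 fold change of 0.70. Of these, mir-210, a hypoxia-responsive miRNA, was higher in the obese than in the lean group at 2.64 (limma adjusted p = 0.00704), and mir-365-2 was lower at −3.75 (0.0266), in the authors' deposited table. Its copy mir-365-1, the neighbour of mir-193b in a cluster that supports mouse brown fat, was at 0.98 (limma adjusted p = 0.591) in the authors' deposited table, so these copies had opposite signs. Of 18 hairpins reported to restrain it, 14 were positive with a median of 0.79, and 2 were called, mir-155 and mir-222 (1.82, limma adjusted p = 0.0240), both positive in the authors' deposited table. The sign of mir-155 was set by the direction taken, so it adds no evidence. Positive shares were thus 78.9% and 77.8% in these lists, against 52.7% over all hairpins and 73.8% within the level range of the miR-30 members, and 5.57% of all hairpins were called. Recentred by 0.34, the medians of the 2 lists were 0.36 and 0.45, against 0.49 for the miR-30 members.

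Among other families with several copies, the 13 hairpins of the let-7 family, let-7 and mir-98, had a median of 0.74 with 12 positive and let-7i called (1.95, limma adjusted p = 0.0383). The 4 miR-29 hairpins had a median of 0.05 with 2 positive, 1 of them mir-29a at 2.0 (limma adjusted p = 0.0614), and mir-29b-1 called at −3.66 (0.0310). Its copy mir-29b-2, at −0.54 and a lower level of 3.64, was not called. The 8 of the miR-15/16 family had a median of 0.29 with 6 positive and none called, in the authors' deposited table. There, mir-15b at 1.18 (limma adjusted p = 0.395) and mir-195a at −1.41 (0.465) had the smallest p. Recentred by 0.34, the medians were 0.40 for let-7, −0.29 for miR-29 and −0.06 for miR-15/16, so the last 2 changed sign. In level, the medians were 9.55 for the miR-30 members, 11.57 for let-7, 6.18 for miR-29 and 6.41 for miR-15/16. Over all hairpins, 30 of 539 (5.57%) were called and 52.7% were positive, with 73.8% positive within the level range of the miR-30 members. Differences between these families, or from these shares, were not tested.

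Markers of the labelled and of other cell types were read from the same table, as levels over both groups. All 6 myeloid hairpins were present, at levels from 4.17 to 14.94. The highest was mir-21a, which is also on the list of hairpins that favour adipocyte differentiation. The myeloid hairpins mir-223, at 7.62, and mir-142a, at 9.70, lay below the highest adipocyte and erythrocyte hairpins. Adipocyte hairpins (4 of 6 in the table) lay between 0.97 and 14.04, endothelial ones between 5.91 and 6.46, mesenchymal ones between 0.22 and 6.59, erythrocyte ones between 4.15 and 11.81, epithelial ones between 0.11 and 3.62, and those of liver and serum between 2.15 and 10.05, while the lymphocyte marker mir-150 was at 3.24. Of these hairpins 3 were called, 2 of 6 myeloid and 1 of 4 adipocyte ones, against 30 of 539 (5.57%) over all hairpins. They went in opposite directions. By the direction taken mir-155 was positive, at 4.41. In the authors' deposited table mir-511, which lies within the mannose receptor gene Mrc1, was at −4.70 (limma adjusted p = 0.0148) and the adipocyte hairpin mir-365-2 at −3.75. Both mir-155 and mir-365-2 were already named in the lists on adipocyte differentiation. Levels per group are not given, so the part of these cells, or of serum, in the miR-30 values was not tested. In such bulk material, fewer cells of a type and less RNA per cell cannot be told apart.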

How the data were processed

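Small RNA from exosomes of ATMs was sequenced in 7 obese and 7 lean libraries. Limma, edgeR, Novoalign, Trimmomatic 0.30, MultiQC and FastQC appear in the submitters' processing notes, without roles. The sources used here give neither build and annotation nor the normalization or the handling of reads that match several hairpins. Fold changes and mean expression are log2 values in the authors' deposited table. Its t and B are scores, and its p-values are unadjusted and adjusted, per the file headers. It has 0 columns of values per library, so no model was fitted and depth is unknown.

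Adjusting the deposited p over 539 rows by Benjamini-Hochberg gave back the deposited adjusted p. From t and p, 17.9 degrees of freedom were recovered for each row and used for 95% intervals. Rows whose absolute t differed by under 0.01 differed in B by up to 0.65, so hairpins did not all enter with the same weights. The arithmetic of the recovery was checked on simulated t and p. That check does not test whether the deposited rows follow the same model. Positions come from GENCODE M21, on which 532 of 539 hairpins were placed, and sequences from RefSeq (GRCm38.p6). Python 3.11.15 with SciPy 1.17.1 was used.

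The members, lists and tests were chosen with earlier results of these data known. Named were the members, hairpins sharing their seeds, the 5 nearest hairpins, and of each list the called members or the 2 of smallest p. The hairpins mir-30f, mir-21a, mir-223, mir-142a, mir-150, mir-98, mir-29a, mir-29b-2, mir-365-1, mir-219a-1 and mir-219c were named after their values were seen. Alternatives were another threshold, recentring, an expression minimum, 1 hairpin per stem, and leaving out the mir-30c copies. For 1 hairpin per stem the copy of smallest p was kept, so those p-values were selected to be small. Added after seeing the data were mir-30f as a further member and the family without mir-30e.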

Additional observations from a re-analysis of the deposited data

How the results depend on the processing

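None of the miR-30 hairpins was called under any of the 6 alternatives run, which were an adjusted p under 0.1, recentring by 0.34 or by 0.09 (the median of all hairpins), leaving out hairpins under a mean log2 expression of 3.32, 1 hairpin per stem (the copy of smallest p), and recentring above that minimum. In that order, the calls over all hairpins were 45, 33 and 29 of 539, 32 of 231, 26 of 508 and 27 of 231. With so few members, 0 calls cannot be set apart from these shares. The smallest adjusted p of a member, that of mir-30d, ranged from 0.0780 to 0.253. The fold change of mir-30e was the 1 value that changed sign, to −0.14 when recentred by 0.34 with all hairpins or above the minimum. The family's median stayed between 0.49 and 0.87, and its largest move was due to recentring by 0.34, by construction of that shift. The mean of 30c-1/30e was 0.16 after that recentring and 0.20 without mir-30c-1. The difference of 30a/30c-2 minus 30c-1/30e was 0.98 without the copies. That of 30b/30d minus 30c-1/30e was then 0.79, and that of 30a/30c-2 minus 30b/30d 0.19. No paired analysis was possible because single libraries have no values here, and they could not be left out in turn for the same reason. Unknown depth limits every statement. In the main run, the smallest called absolute t of 3.53 corresponds to at least 4.15-fold for every member. That figure does not carry over to the alternatives.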
